A study of Mus musculus with 2 samples.

Results

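The genes of the cytosolic ribosomal proteins were followed in MIN6 cells, a mouse insulinoma line that makes insulin, after transfection with a control vector or with a vector that expresses the glucocorticoid receptor (GR, encoded by Nr3c1). Members were the rows of the all-gene table that are annotated protein coding and whose names start with Rplp, or with Rpl or Rps and a digit. Rps27a, the S6 kinase genes (Rps6k) and names marked as pseudogene copies were left out. This gave 82 of 21542 genes: 50 named for the large subunit, 31 for the small subunit, and Rps19bp1, whose product regulates the deacetylase Sirt1 and is no part of the ribosome.

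Each group was 1 library, so no difference given here has a replicate check. Both came from cells labelled as C57BL/6, grown in 25 mM glucose with 15% serum and transfected, per 3.5 cm dish, with 4 ug of plasmid in 4.8 ul of Lipofectamine 2000. The labels give no passage, form of the receptor cDNA, added steroid or time of harvest. The comparison asks what more GR does to the transcripts of these cells.

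Cytosolic ribosomal proteins assemble with ribosomal RNA into a small subunit, which decodes the messenger RNA, and a large subunit, which joins the amino acids. Their messenger RNAs start with a 5′ terminal oligopyrimidine (TOP) tract, a run of C and T through which mTOR and Larp1 adjust their translation together. In beta cells the same ribosomes make the large amounts of proinsulin. Most of these genes also have many processed pseudogenes in the mouse genome, near-identical copies without introns, so reads that match several places may be counted on a gene or on one of its copies.

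Start regions are shown for 6 members, 4 with a pyrimidine run over the start and 2 of those past 1.2-fold without one, because the TOP tract is what these genes are known to share. RefSeq promoter entries (GRCm38.p6) matched 63 of the 82 members. Each line runs from 40 bases before the annotated start to 25 bases from the start on, and capitals mark runs of at least 6 pyrimidines. In Rpl7a, Rps6, Rps10 and Rpl28 the annotated start lay inside such a run, and in Rps13 and Rpl22l1 it did not.
Rpl7a, chr2:26910767-26910831, plus strand: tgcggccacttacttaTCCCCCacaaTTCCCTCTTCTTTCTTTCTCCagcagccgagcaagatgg
Rps6, chr4:86857343-86857407, minus strand: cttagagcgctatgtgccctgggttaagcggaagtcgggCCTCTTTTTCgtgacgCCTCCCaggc
Rps10, chr17:27635220-27635284, minus strand: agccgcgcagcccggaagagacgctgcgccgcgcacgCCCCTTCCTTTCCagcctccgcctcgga
Rpl28, chr7:4792925-4792989, plus strand: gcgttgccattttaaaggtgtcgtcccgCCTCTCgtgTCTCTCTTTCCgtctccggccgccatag
Rps13, chr7:116334166-116334230, minus strand: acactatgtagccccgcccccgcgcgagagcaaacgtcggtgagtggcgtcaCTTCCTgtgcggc
Rpl22l1, chr3:28805468-28805532, plus strand: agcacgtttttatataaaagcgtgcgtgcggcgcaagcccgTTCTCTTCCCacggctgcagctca

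Among the 63 members 20 (31.7%) had a pyrimidine run of this length over the annotated start, against 8.48% of 27025 promoter entries. The letters CTTTCC, read on the transcribed strand from 30 bases before to 50 after the start, occurred in 19 members (30.2%) and in 4.36% of all entries, and they can overlap such a run. The ETS motif CGGAAGT, the core bound by Gabpa, was read on both strands of the whole window of 250 bases before to 50 after the start. It was in 22 members (34.9%) and in 7.20% of all entries. The Yy1 motif AAGATGGC was in 6 members (9.52%) and 3.19% of entries by the same search. The letters AGAACA, a part of the GR response element, were in 11 members (17.5%) and 21.3% of entries. These are matches of letters, which show no binding, and annotated starts can lie some bases from the used ones.

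Coding sequences are shown beside the most read copy for Rpl21, Rps10, Rps27a and Rps13, whose reads differed most between libraries or lay mostly on a copy. Sequences are from GENCODE M21 (GRCm38), and capitals mark the bases that differ. Rpl21 (chr5:146832890-146837032, plus strand) and its copy Rpl21-ps15 (chrX:151215167-151215649, minus strand) differed at 3 of 480 coding bases, all inside coding bases 313 to 432.
Rpl21: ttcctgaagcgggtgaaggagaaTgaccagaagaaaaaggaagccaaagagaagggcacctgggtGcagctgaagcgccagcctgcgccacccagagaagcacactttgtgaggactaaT
Rpl21-ps15: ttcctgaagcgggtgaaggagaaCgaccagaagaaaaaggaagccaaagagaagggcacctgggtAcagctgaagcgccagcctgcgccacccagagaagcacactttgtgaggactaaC

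Rps10 (chr17:27630418-27636669, minus strand) and Rps10-ps2 (chr16:20822145-20822640, minus strand) differed at 5 of 495 bases, all inside coding bases 354 to 473.
Rps10: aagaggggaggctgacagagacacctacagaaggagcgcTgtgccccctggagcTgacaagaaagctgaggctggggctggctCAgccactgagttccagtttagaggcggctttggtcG
Rps10-ps2: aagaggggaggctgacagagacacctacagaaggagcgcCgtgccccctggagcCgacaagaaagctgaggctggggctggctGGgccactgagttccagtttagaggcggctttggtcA

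Rps27a (chr11:29545846-29548109, minus strand), outside the rule, and its copy Gm8430 (chr6:122456904-122457374, plus strand) differed at 1 of 468 bases, inside coding bases 1 to 120.
Rps27a: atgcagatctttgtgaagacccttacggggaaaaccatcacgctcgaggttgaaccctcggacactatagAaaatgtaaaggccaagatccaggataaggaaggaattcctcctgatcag
Gm8430: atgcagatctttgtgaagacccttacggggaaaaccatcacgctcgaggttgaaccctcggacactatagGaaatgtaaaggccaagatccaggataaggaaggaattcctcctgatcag

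Rps13 (chr7:116331505-116334195, minus strand) and Rps13-ps2 (chr7:88530446-88530898, minus strand) had the same 453 coding bases, of which the first 120 are shown.
Rps13: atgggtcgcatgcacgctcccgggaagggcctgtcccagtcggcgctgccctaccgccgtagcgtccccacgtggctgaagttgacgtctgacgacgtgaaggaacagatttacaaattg

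Of all members, 32 had every coding stretch of 31 bases in common with another annotated gene, and 77 shared 25% or more of them (median 96.3%). Rps3, Rpl8, Rpl3l and Rps19bp1 were among those that shared less. The counts of nearly all members are therefore uncertain in the way reads between gene and copies were divided, and how the authors counted such reads is not given in the sources used here.

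Over all genes there were 18537326 control reads and 18525668 GR reads. Nr3c1, the targeted gene, had 2645 reads under the control vector and 5202 under the GR vector (fold 1.97, 95% interval 1.88 to 2.07), and the counts do not tell transcripts of a vector from those of the cells themselves. All 7 beta cell markers were read, with 799176 control reads and 752579 GR reads in sum, of which Ins2 alone had 407986 and 373033. Ins1 (54374 and 51817), Iapp (283796 and 273874) and Nkx6-1 (8338 and 8140) also had fewer GR reads. Pdx1 (9546 and 9932), Mafa (17066 and 17357) and Slc2a2 (18070 and 18426) had more. Summed markers of alpha, delta and PP cells had 629 and 737 reads, acinar and duct markers 2436 and 2179 (2429 and 2166 of them on Krt7), fibroblast and endothelial markers 75 and 86, and immune markers 212 and 214. Hhex, Ppy, Prss1, Cpa1, Krt19 and Col3a1 were at 0 reads in both libraries.

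The members together held nearly the same share of reads in both libraries. They had 309405 reads under the control vector and 306188 under the GR vector, which is 1.67% (95% interval 1.66% to 1.67%) and 1.65% (1.65% to 1.66%) of all reads. Scaled for library size, the summed reads had a fold of 0.992 (0.988 to 0.997), GR vector over control vector, as all folds here. The intervals are exact Clopper-Pearson intervals and cover counting error only. In bulk RNA, fewer cells of a type and less RNA per cell cannot be told apart.

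Reads per member ran from 1 to 12507 under the control vector (median 3214) and from 1 to 11961 under the GR vector (median 3228). A mean of at least 100 reads over both libraries was reached by 79 of the 82 members. The other three were Rpl3l (1 and 1 reads, control and GR vector), Rpl36al (15 and 6) and Rpl24 (84 and 89). Over the 79, the median log2 fold change was -0.02, with a middle span from -0.05 to 0.04, and 33 lay above 0 and 46 below. All 11070 genes with as many reads had a median of 0.0042 and a span from -0.07 to 0.07. The 77 genes of mitochondrial ribosomal proteins, which serve the separate ribosome of that organelle, had a median of -0.02.

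Within 1.1-fold of equality lay 72 of the 79 members (91.1%), against 78.9% of all genes with as many reads. Members are well read, however: of those with a mean of 1000 reads or more 93.0% lay within 1.1-fold, beside 92.9% of all genes so read. At least 1.2-fold apart were 4 of the 79 members (5.06%), against 5.04% of all genes. Of these, 3 were higher with the GR vector (2.68% of all genes were) and 1 was lower (2.36%). Among the 71 members with a mean of 1000 reads or more 3 were 1.2-fold apart (4.23%), beside 0.288% of genes so read, which are 14 genes in all. These 3 are Rps13, Rpl7a and Rpl21. Each shared over 95% of its coding stretches with other genes, beside a median of 96.3% over all members.

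**Figure D1:**
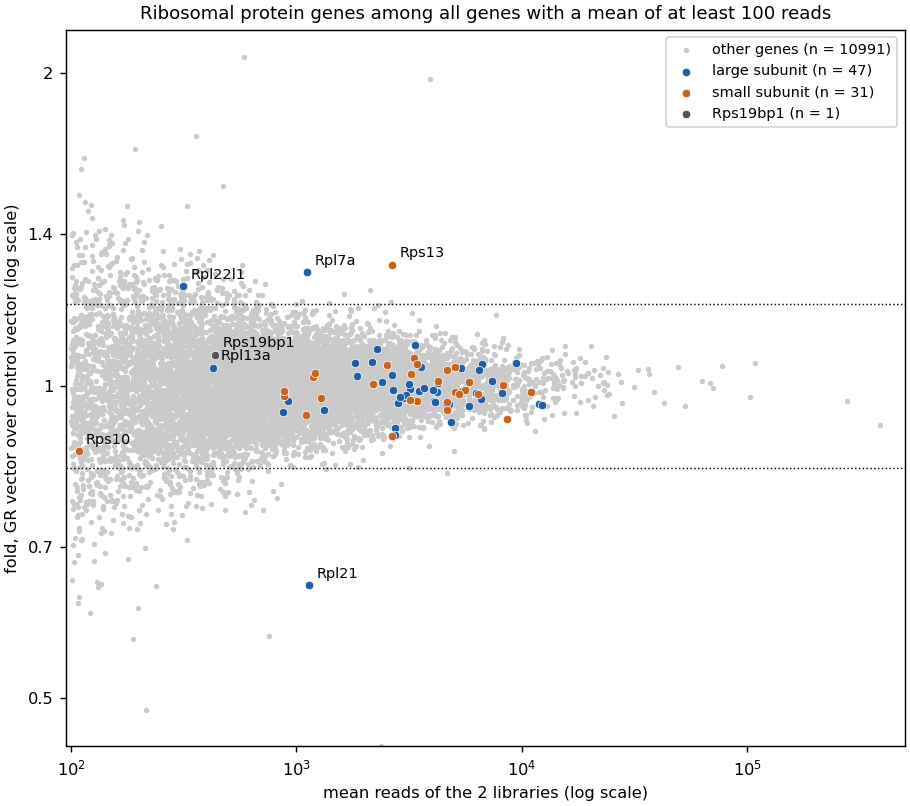
Fold of GR over control vector (log scale) against mean reads of the 2 libraries (log scale) for genes with a mean of 100 reads or more, members coloured by subunit and all others grey; dotted lines mark 1.2-fold either way, and 9 other genes lie outside the plotted range. The members form a band around 1, and Rps13, Rpl7a and Rpl22l1 lie above the upper line and Rpl21 under the lower one.

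Rps13, a protein of the small subunit body, had 2313 reads under the control vector and 3018 under the GR vector. Its fold was 1.31 (1.24 to 1.38). Rpl7a, a protein of the large subunit, had 978 and 1254 reads and a fold of 1.29 (1.18 to 1.40). Rpl22l1, the paralog of Rpl22 that can take its place in the large subunit, had 280 and 348 reads (fold 1.25, 1.06 to 1.46). Rpl21, also of the large subunit, lay on the other side, with 1390 and 890 reads (fold 0.642, 0.590 to 0.699). None of the other members with a mean of 100 reads or more reached the 1.2-fold limit. The nearest to it were Rpl9 (3214 and 3506 reads, fold 1.09) on the higher side and Rps10 (116 and 100 reads, fold 0.865, 0.655 to 1.14) on the lower side.

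Differences beyond counting error were found on both sides in like numbers. The interval lay above 1 for 12 of the 79 members (15.2%), beside 10.8% of all genes, and below 1 for 11 (13.9%), beside 8.63%. Among the 71 members with a mean of 1000 reads or more the interval lay above 1 for 11 and below 1 for 11, 15.5% each, where all genes so read gave 15.7% above and 11.0% below. Scaled by total reads or by DESeq2's size factors, 8 lay above and 11 below, and the 4 lost were Rpl6, Rpl10, Rps9 and Rps26. Over the 79 members, higher GC content of the transcripts went with a lower fold (Spearman's rho -0.32), as over all genes with a GC value (-0.38, 11062 genes). Without the trend with GC, 11 lay above and 7 below. Which members these were is not given here, so each interval named below may depend on that trend. The shares of all genes under the other scalings and without the GC trend are not given here. These values describe 2 libraries, and the genes of a library share its depth and any trend of its reads with base composition.

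In the authors' deposited table, 0 of the 82 members had an adjusted p under 0.05, beside 4 of all 21542 genes (0.0186%), and 0 had an unadjusted p under 0.05 (1.09% of all genes had). The deposited p-values equalled those of an edgeR exact test with a preset dispersion of 0.04 on the recovered reads, by which 0 members passed as well. A preset spread is not one measured between replicates. At this setting Nr3c1, with a fold of 1.97, did not pass the adjusted p either, so these counts cannot show that the members were equal. An enrichment report was deposited for sets scored toward the GR vector, and its ribosome set is not the list of 82 members. The authors' deposited enrichment report gave the ribosome set (134 genes) a normalized enrichment score of 1.00 with an FDR q-value of 0.973, and ribosome biogenesis (80 genes) 0.981 with 0.996. Its nominal p-values for these sets were listed as 0 and 0.5.

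**Figure D2:**
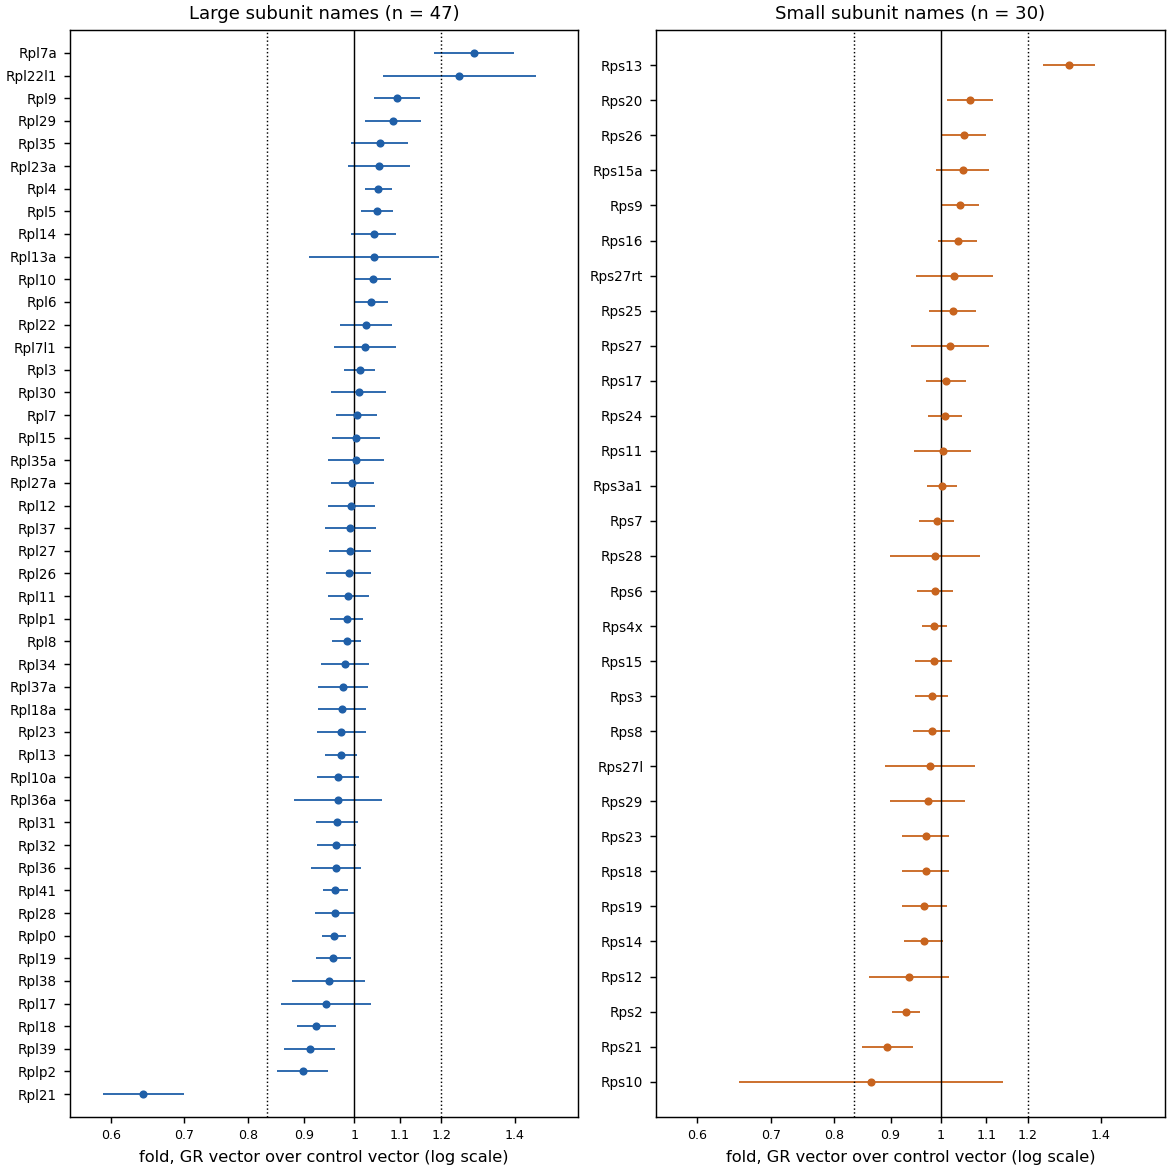
Fold of GR over control vector (log scale) with its 95% counting interval for members with a mean of 100 reads or more, by subunit, without Rps19bp1 and 1 other member; the solid line marks 1 and the dotted lines 1.2-fold either way. The 47 large subunit names and the 30 small subunit names plotted lie mostly near 1, with Rpl21, Rpl7a, Rpl22l1 and Rps13 past 1.2-fold.

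The genes of both subunits lay side by side. The median log2 fold change was -0.02 for the 47 large subunit names and -0.02 for the 31 small subunit names, which differed by 0.00083. Large subunit names together had 187303 and 184947 reads (fold 0.990, 0.984 to 0.997), and small subunit names 121680 and 120790 (fold 0.996, 0.988 to 1.00).

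In the small subunit, the 13 genes of the head, the part that swivels as the messenger moves, had a median log2 fold change of -0.03. Of their intervals 1 lay above 1 and 1 below (7.69% each), beside 10.8% and 8.63% of all genes. Rps20 was the one above (3213 and 3406 reads, fold 1.06, 1.01 to 1.12). Rps3, which lines the entry of the messenger channel, had 6432 and 6294 reads (fold 0.981, 0.948 to 1.02). Rps12, also in the head, had 1143 and 1067 reads and a fold of 0.936 (0.860 to 1.02). Rps10, beside Rps3 at the channel entry, was the least read of the 31 names.

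The 16 genes of the body and platform had a median of -0.0045, with 3 intervals above 1 (18.75%) and 2 below (12.5%). Genes with a mean of 1000 reads or more gave 15.7% and 11.0%. Beside Rps13, Rps26 (3360 and 3517 reads, fold 1.05) and Rps9 (4953 and 5144, fold 1.04) lay above, but both intervals held 1 under scaling by total reads or by DESeq2. Rps26 touches the messenger RNA where it leaves the channel. Rps2 (8967 and 8312 reads, fold 0.930) and Rps21 (2813 and 2508, fold 0.894, 0.847 to 0.944) lay below. Rps6, the protein that S6 kinase phosphorylates, had 5447 and 5365 reads (fold 0.988, 0.951 to 1.03), which holds 1. Rps4x and Rps3a1, among the most read members, had 11113 and 10934 reads and 8239 and 8236 reads.

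In the large subunit, the stalk recruits the elongation factors, and its 4 genes all had folds below 1, as had 46 of the 79 members and 5395 of 11070 genes. Together they had 24948 and 23948 reads (fold 0.963, 0.946 to 0.980, median log2 fold change -0.04). Rplp0, the anchor of the stalk and the most read member, had 12507 and 11961 reads (fold 0.959, 0.935 to 0.984). Rplp2 had 2900 and 2595 reads (fold 0.897, 0.851 to 0.947). The intervals of Rplp1 (6338 and 6219 reads, fold 0.984) and Rpl12 (3203 and 3173, fold 0.993) held 1, so 2 of 4 intervals lay below it, beside 11.0% of genes with a mean of 1000 reads or more.

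Around the peptidyl transferase centre, where peptide bonds form, the 4 genes together had 30094 and 30643 reads (fold 1.02, 1.01 to 1.04). Rpl4 (9173 and 9620 reads, fold 1.05) and Rpl10 (5281 and 5479, fold 1.04) had intervals above 1. That is 2 of 4, beside 15.7% of genes with a mean of 1000 reads or more. The interval of Rpl10 held 1 under scaling by total reads or by DESeq2. Rpl3 (7377 and 7438, fold 1.01) and Rpl8 (8263 and 8106, fold 0.984) did not differ beyond counting error. Rpl5 and Rpl11 bind the 5S ribosomal RNA, and outside the ribosome they hold back the p53 ligase Mdm2. Rpl5 had 6496 and 6794 reads (fold 1.05, 1.01 to 1.08) and Rpl11 4216 and 4150 (fold 0.987, 0.946 to 1.03).

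At the rim of the exit tunnel, where the new chain leaves, the 7 genes together had 21334 and 20725 reads (fold 0.974, 0.956 to 0.993). Rpl39, which lines the tunnel itself, had 2871 and 2606 reads (fold 0.910, 0.863 to 0.960). Rpl19 had 5977 and 5704 (fold 0.957). Rpl17, Rpl23a, Rpl26, Rpl31 and Rpl35 had intervals that held 1. So 2 of 7 intervals (28.6%) lay below it, beside 8.63% of all genes and 11.0% of those with a mean of 1000 reads or more.

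Among large subunit proteins in none of these groups, Rpl18 (5050 and 4651 reads, fold 0.924) and Rpl41 (12173 and 11665, fold 0.961) were lower beyond counting error. So was Rpl28 (4840 and 4632 reads, fold 0.960, 0.922 to 0.9995), whose interval ended next to 1. Rpl29 (2178 and 2356 reads, fold 1.08), Rpl9 (fold 1.09) and Rpl6 (6332 and 6540, fold 1.04) were higher beyond it, but the interval of Rpl6 held 1 under scaling by total reads or by DESeq2. Rpl13, one of the most read, had 6712 and 6506 reads (fold 0.972, 0.939 to 1.01). In the 19 genes known for Diamond-Blackfan anaemia, a failure of red cell formation, 2 intervals lay above 1 (10.5%, beside 10.8% of all genes) and 1 below (5.26%, beside 8.63%), and the median was -0.01.

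Levels can be compared between genes only per length, and are given as RPKM, a read count scaled to the coding length and the library total. Over the 79 members the quartiles of this level were 287, 418 and 543 under the control vector and 304, 406 and 528 under the GR vector. The middle of the group was narrow beside its ends. Rpl41, whose coding sequence is only 75 bases, stood at 8756 and 8396, and since reads also fall outside the coding sequence this level is inflated. Full counts were divided by coding length for every member, so the other levels are inflated too, to differing degrees. Rpl39 came next (1012 and 919), then Rplp1 (999.7 and 982) and Rps24 (783 and 788).

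Lowest were Rps10 (12.6 and 10.9), Rpl13a (37.0 and 38.5), Rpl22l1 (41.3 and 51.3) and Rpl7a (66.1 and 84.8). Rps10 and Rpl7a are core proteins present once in each ribosome, and their copies carried more reads than they did. That was not so for Rpl13a, whose copy Gm11478 had 7 and 9 reads, or for Rpl22l1, whose copy Gm15421 had 8 and 5. The cause of the low levels was not tested. The rank of the share of coding stretches in common with other genes went only weakly with the rank of the level over the 79 members (Spearman's rho -0.12 in the control library).

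**Figure D3:**
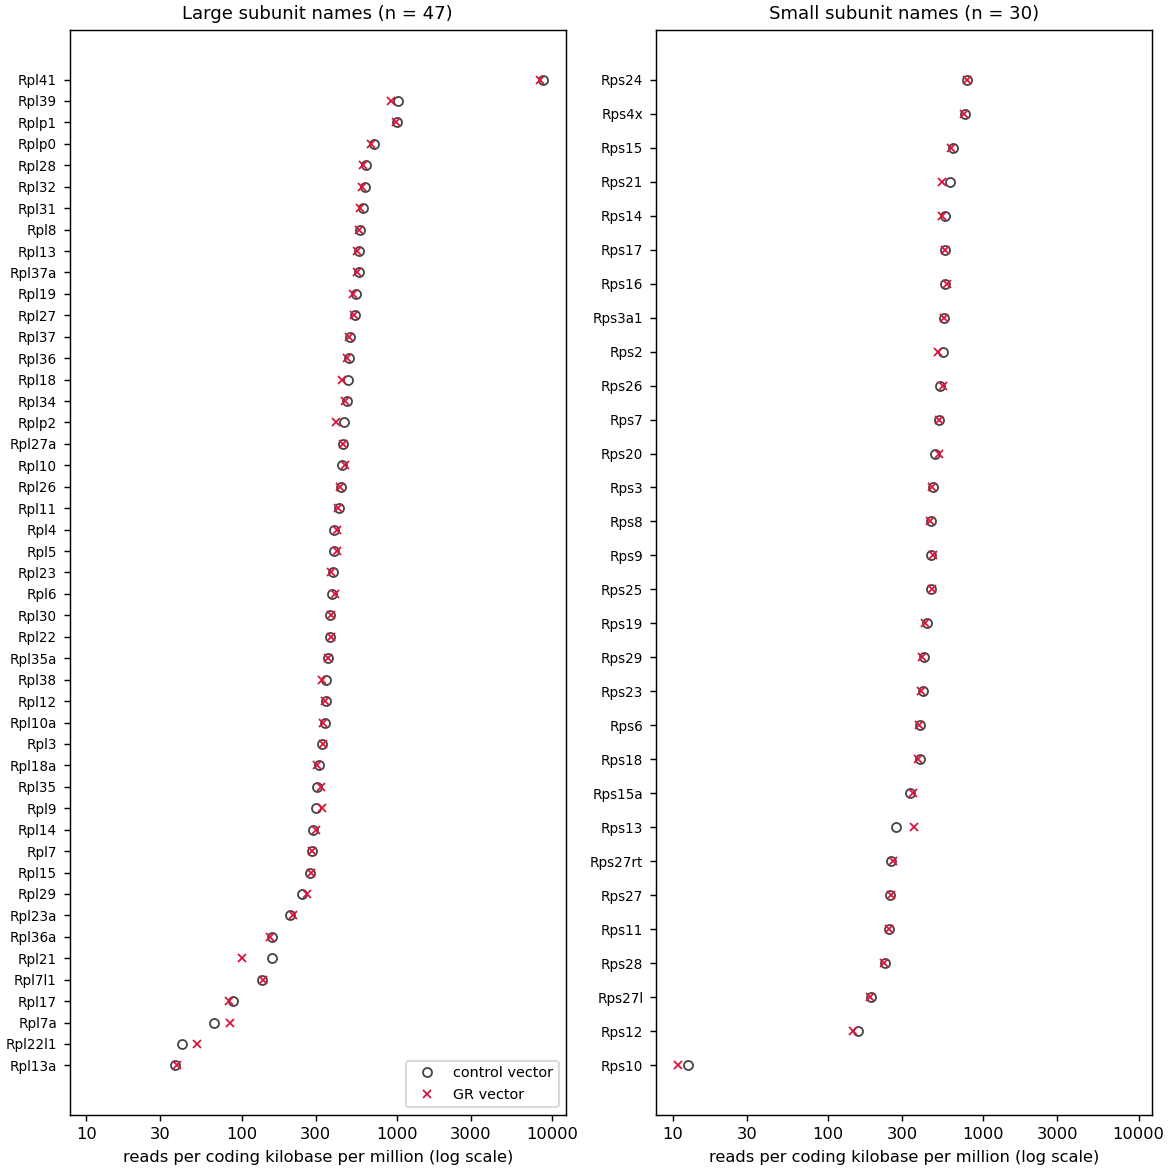
RPKM computed on the coding length (log scale) of members with a mean of 100 reads or more, without Rps19bp1 and 1 other member, circles for the control vector and crosses for the GR vector, by subunit. Both marks coincide for most genes, Rpl41 stands far above the rest, and Rps10, Rpl13a, Rpl22l1 and Rpl7a stand lowest.

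Paralogs can stand in for the usual protein in some tissues. Of the reads on Rpl22 and Rpl22l1, the paralog took 9.65% (8.60% to 10.8%) with the control vector and 11.5% (10.4% to 12.7%) with the GR vector. The 2 intervals overlap, and Rpl22 itself had 2621 and 2678 reads. Rps27l had 887 and 865 reads, or 43.0% and 42.0% of its reads with Rps27. Rps27rt, a retrotransposed gene that shares all its coding stretches with others, had 1190 and 1221 reads, about as many as Rps27 (1174 and 1194). The share given for Rps27l leaves out the reads of Rps27rt and would be lower with them. Rpl7l1, which acts in the assembly of the large subunit, had 1841 and 1876 reads, 30.2% and 30.5% of its reads with Rpl7. Rpl36al took 1.59% and 0.665% of its reads with Rpl36a, intervals of 0.891% to 2.60% and 0.244% to 1.44% that overlap. Rpl3l, the form of striated muscle, had 1 read in each library beside 7377 and 7438 on Rpl3.

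Of paralogs that the rule does not take in, Rpl9-ps6 had 166 and 130 reads, Rpl37rt 176 and 161, and Rps4l 1 and 1. Rpl10l, Rpl26l1 and Rpl39l were not analysed here. Rps19bp1 had 422 and 451 reads (fold 1.07, 0.936 to 1.23).

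Some genes of true ribosomal proteins fall outside the rule. Rps27a, made as a fusion with ubiquitin, had 3263 reads under the control vector and 1463 under the GR vector (fold 0.450, 0.422 to 0.478). That is a larger difference than any member with a mean of 100 reads or more had. Rpsa had 9311 and 9251 reads (fold 0.996) and Fau 3863 and 3888 (fold 1.01). With the ribosomal proteins outside the rule counted in, the share of reads was 1.76% under the control vector and 1.73% under the GR vector.

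The copies were read as well. Annotated genes with at least 50% of their own stretches of 31 bases in a member numbered 242, for 65 members, and 233 of them are processed pseudogenes. They had 22680 reads under the control vector and 23225 under the GR vector (fold 1.03, 1.01 to 1.05), beside the members' 0.992. Without the copies of Rpl21 they had 21580 and 21880 reads, and the interval held 1 (fold 1.02, 0.998 to 1.04).

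Rpl21 and its 15 copies lay on opposite sides of 1. The copies had 1100 and 1345 reads (fold 1.23, 1.13 to 1.33) where the gene had 1390 and 890. Of these copies Gm12411 had 48 and 185 reads and Rpl21-ps15 had 813 and 879. Gene and copies summed to 2490 and 2235 reads, a fold of 0.900 (0.850 to 0.953) in place of 0.642.

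Rps13 and its 5 copies did so too, with 218 and 154 reads on the copies (fold 0.708, 0.573 to 0.875), and the sum still had a fold of 1.26 (1.19 to 1.32). The 15 copies of Rpl7a had 1224 and 1257 reads (fold 1.03, 0.951 to 1.12), beside 978 and 1254 on the gene. Its sum had a fold of 1.14 (1.08 to 1.21), under the 1.2-fold limit. Rpl22l1 has 1 copy with 8 and 5 reads, and its sum had a fold of 1.23. With copies added, Rps13 and Rpl22l1 were the 2 members of 80 past 1.2-fold.

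For Rps27a the copies had 207 and 266 reads (fold 1.29, 1.07 to 1.55), and the sum had a fold of 0.500 (0.471 to 0.530). The difference in the gene thus remained in the sum. Whether reads were divided differently between gene and copies in the 2 libraries was not tested, since the reads' own positions were not used here.

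Of 42 members with a mean of 100 reads or more on their copies, 7 had copies with an interval above 1 and 2 below it, beside 10.8% and 8.63% of all genes. Of the 48 single copies with as many reads, 5 intervals lay above 1 and 2 below. Past 1.2-fold, 3 of these copies were higher and 4 lower, beside 2.68% and 2.36% of all genes. In Rpl21 and Rps13 the gene and its copies lay on opposite sides of 1 with both intervals leaving out 1, and in Rpl5 both lay above. Rpl30 had 2381 and 2396 reads (fold 1.01), while its 4 copies had 94 and 217 (fold 2.32). Rpl17 had 899 and 845 reads and its 9 copies 3487 and 3446. Rps10 had 116 and 100 reads and its 2 copies 1212 and 1296, so the low count of the gene stood beside a count on Rps10-ps2 of 1108 and 1170. Among the 79 members with a mean of 100 reads or more, copies had more reads than the gene in 3 under the control vector (Rpl7a, Rpl17 and Rps10) and in 4 under the GR vector, where Rpl21 joined them. Under that minimum, Rpl24 had 84 and 89 reads beside 113 and 99 on its copies, and Rpl36al 15 and 6 beside 6 and 12.

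**Figure D4:**
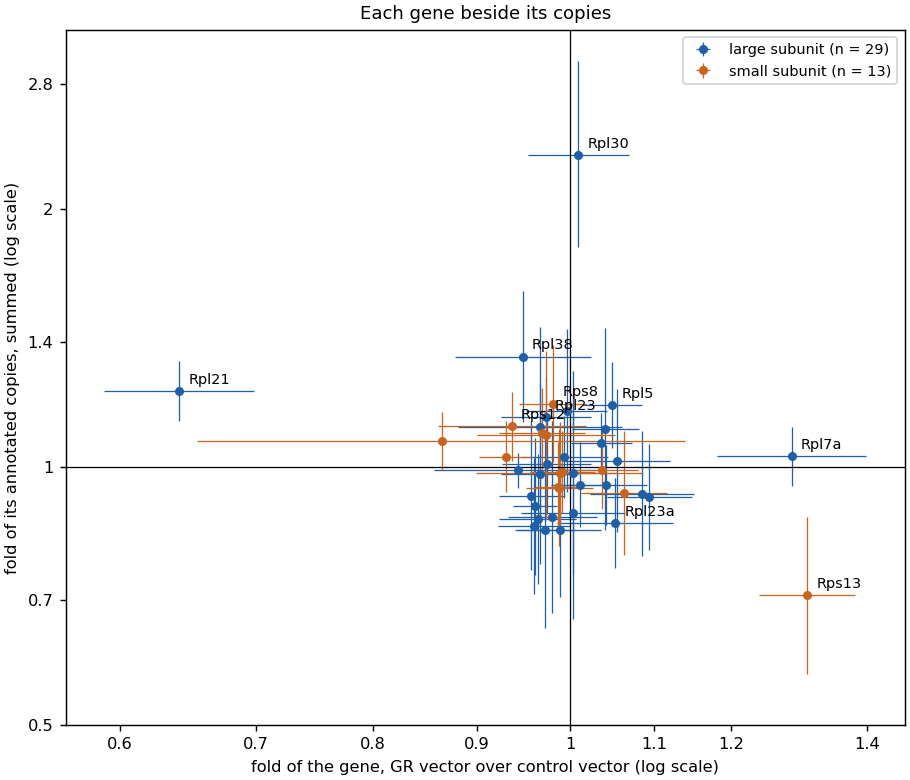
Fold of the summed annotated copies against the fold of the gene (both log scales, GR vector over control vector) for 42 members with a mean of 100 reads or more on their copies, with 95% counting intervals. Rpl21 lies upper left and Rps13 lower right, with gene and copies on opposite sides of 1, and Rpl30 stands highest for its copies.

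Genes that share the TOP tract or build the ribosome were read from lists beside the members. As background, 10.8% of all genes lay above and 8.63% below, and among genes with a mean of 1000 reads or more, as all measured TOP genes had, 15.7% and 11.0%. Of 17 TOP genes that are no ribosomal protein, 4 intervals lay above 1 (Naca, Nap1l1, Btf3 and Tpt1) and 1 below (Rack1), and the median log2 fold change was 0.02. Naca, a subunit of the complex that shields new chains, had 2778 and 3063 reads (fold 1.11), and Nap1l1, a histone chaperone, 6587 and 7205 (fold interval 1.06 to 1.13). Rack1, a scaffold on the small subunit, had 8207 and 7928 (fold 0.969), and the elongation factor genes Eef1g, Eef1a1 and Eef2 had folds of 0.965, 1.01 and 0.986.

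Of 40 assembly factors 5 intervals lay above 1 and 3 below, with a median of 0.0059. Nmd3, the export adaptor of the large subunit, had 492 and 563 reads (fold 1.15), and Dkc1, the pseudouridine synthase of small nucleolar particles, 467 and 528 (fold 1.13, 0.999 to 1.29). Nob1, the nuclease that trims the small subunit RNA, had 641 and 544 (fold 0.851), and Gar1, a partner of Dkc1, 487 and 419 (fold 0.863). Nucleolin (Ncl) had 9037 and 9476 reads (fold 1.05) and Eif6, which keeps free large subunits apart from small ones, 4704 and 4504 (fold 0.960, 0.922 to 1.00).

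RNA polymerase I transcribes the large ribosomal RNAs, and of 15 genes for it and its factors 1 interval lay above 1 and 2 below (median 0.02). Taf1a (172 and 216 reads, fold 1.26) and Taf1c (383 and 328, fold 0.859), both subunits of its selectivity factor, went opposite ways. Ubtf, which opens the ribosomal DNA, had 6995 and 6735 reads (fold 0.966, 0.934 to 0.999). Ttf1, the terminator protein, had a fold of 1.13, Polr1e one of 0.871, and the largest subunit Polr1a one of 0.955, with intervals that held 1.

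Of 11 regulators of ribosomal protein output 2 intervals lay above 1, Gabpa and Larp4, and 0 below (median 0.03). Gabpa, the ETS factor whose core motif was searched above, had 1753 and 1954 reads (fold 1.12, 1.05 to 1.19). Larp1, which binds TOP tracts, had 5918 and 5973 reads (fold 1.01) and Yy1 3970 and 4130 (fold 1.04, 0.999 to 1.09). The S6 kinase genes Rps6kb1 and Rps6kb2 had folds of 1.08 and 0.987, and Mycn, with 110 and 105 reads, one of 0.957, all with intervals that held 1.

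**Figure D5:**
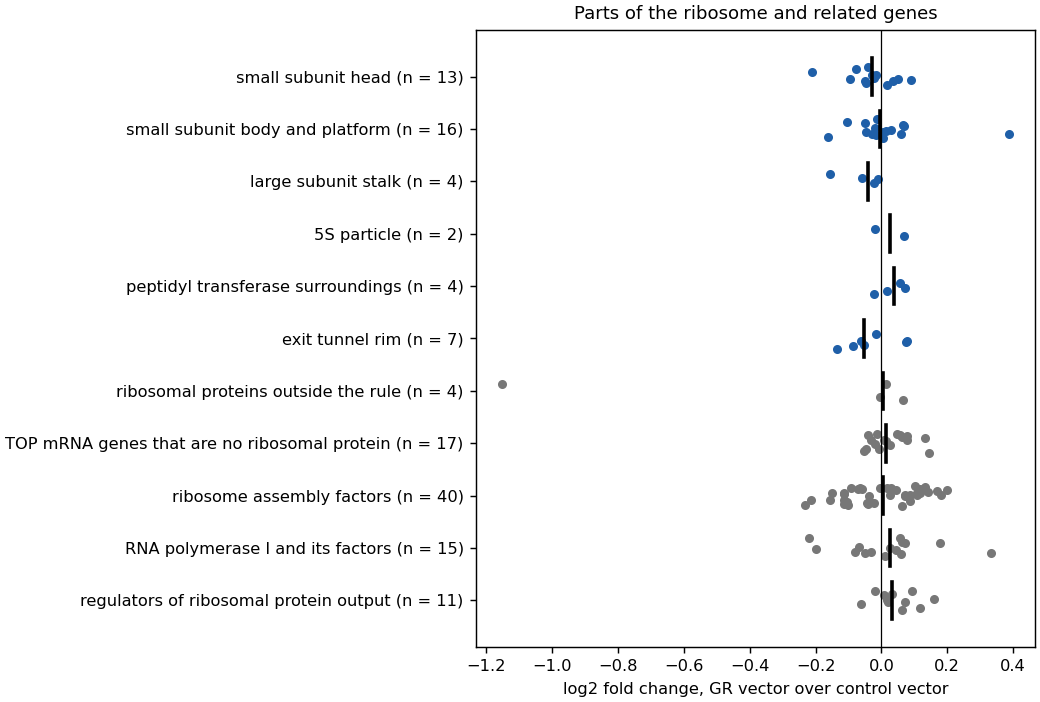
Log2 fold change (GR vector over control vector) of each gene with a mean of 100 reads or more in 6 parts of the ribosome (blue) and in 5 related lists (grey), with a bar at each median. The medians lie close to 0, and the point far to the left is Rps27a, outside the rule.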

How the data were processed

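Total RNA of MIN6 cells was sequenced, 1 library with a control vector and 1 with a GR vector. The authors deposited a signal per gene and library: 100% of the values were whole multiples of a smallest step (to within 0.01 reads), and dividing by that step gave whole reads. The table also holds a log2 fold change and p-values that the authors deposited, and a deposited enrichment report gives scores and q-values. The submitters' processing notes name DESeq2 1.10.1. For aligner, counter, strand handling and genome build the entry is: not given in the sources used here.

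Folds were computed from the recovered reads and library sizes scaled by TMM (edgeR 4.0.16), with exact 95% Clopper-Pearson intervals. These cover counting error only, and reads are not independent molecules. A fold of 1.2 or more in either direction, at a mean of at least 100 reads, counted as a difference in size. No p-value was computed from the 2 libraries, except that an edgeR exact test with a preset dispersion of 0.04 was compared with the deposited p-values, from which it differed by at most 4.5e-08. It called 4 genes at an adjusted p under 0.05, as the authors' table does. The computation of folds was tested on reads drawn with known differences.

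Coding sequences, GC content and copies came from GENCODE M21 (GRCm38), which holds the identifiers of 21516 of 21542 genes and of all 82 members. A copy is a gene with at least 50% of its 31-mers (stretches of 31 bases) in a member. Promoter windows came from RefSeq (GRCm38.p6). No column of another sample was in the files (0 columns). The members and gene lists were chosen with earlier results of these data known. Values were given for Nr3c1, members past 1.2-fold, the 10 most read, the 3 highest and 3 lowest of each subunit, paralogs, ribosomal proteins outside the rule, members next to the limit, and from each related list the 2 highest, 2 lowest and 2 most read. A few genes are not reported here by name. Other members, copies and Btf3, Tpt1 and Larp4 were named after their values were seen. Alternatives were other scaling, read minimums, limits, lists, shared sequence, added copies and a GC correction.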

Additional observations from a re-analysis of the deposited data

How the results depend on the processing

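No paired analysis was possible because each group has 1 library, and for the same reason no library could be left out. The number of members past 1.2-fold was 4. It was 0 among the 4 members with under 25% of coding 31-mers shared, 2 with copies added, 2 among the 45 members with under 50% of the 31-mers of all transcripts shared (a limit chosen after seeing the data), 7 at 1.1-fold and 1 at 1.5-fold. The 2 among the 45 members were Rps13 and Rpl21. Both limits on shared sequence leave fewer genes, and the cause of the change with copies added was not tested. The number of members whose interval leaves out 1 was 23, and 1 among the 4 members with under 25% shared. The share of reads was 1.67% and 1.65%. With the ribosomal proteins outside the rule it was 1.76% and 1.73%, with copies added 1.79% and 1.78%, and without mitochondrially encoded genes 1.70% and 1.68%. With copies added the log2 fold change was -0.15 for Rpl21 and 0.19 for Rpl7a, both inside the limit, and with the GC trend removed it was 0.25 for Rpl22l1, also inside it, which left 3 members past 1.2-fold, 2 of them higher. The fold of all copies was 1.03, and 1.02 without the copies of Rpl21 (chosen after seeing the data), where its interval held 1. No value changed its side of 0 among those called. Depth limits the least read members, of which Rpl3l, Rpl36al, Rpl24, Rps10 and Rps19bp1 could differ by 1.2-fold within their counting intervals.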
